A study of Mus musculus with 6 samples.

Results

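The cytosolic ribosomal proteins are described here across spheres from mouse mammary tumors of 2 FRS2beta genotypes. Members were the array probes, control spots left out, whose RefSeq transcript belongs to a gene with an Rpl, Rps or Rplp symbol and a number, without the Rps6k kinases. The rule gave 167 probes of 81 genes, of 55681 probes and 20660 named genes on the array. The small subunit had 57 probes of 31 genes and the large subunit 110 probes of 50 genes. In the RefSeq gene list 80 of the 81 genes are protein-coding and 1, Rps4l, is a transcribed pseudogene.

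Spheres are free-floating clusters of cells grown without serum. They came from mammary tumors of mice labelled FRS2beta hetero (heterozygous, 3 arrays) and FRS2beta knock-out (called knockout here, 3 arrays). FRS2beta, an adaptor that docks on receptor tyrosine kinases, is the product of Frs3. The medium, the same for both genotypes, held 20 ng/mL each of EGF and bFGF, with 2 mg/mL heparin. The labels give no strain, age, tumor model or deleted exon, and do not say whether the numbered replicates are separate animals or cultures. The p-values below thus rest on the spread between numbered samples, and that spread may be technical. In bulk RNA of this kind, fewer cells of a type and less RNA per cell cannot be told apart.

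Total RNA labelled with Cy3 was hybridised to 1-colour Agilent arrays on 1 slide, scanned on 1 day. Each slide column held a single genotype, so slide column and genotype cannot be told apart. The number of arrays, 3 per genotype, limits the precision. Hetero arrays had a 75th percentile of processed signal from 404 to 416 and knockout arrays from 465 to 487, and 60.4% to 61.3% against 60.5% to 69.6% of probes were well above background. The only Frs3 probe was well above background on 1 of 3 hetero and 0 of 3 knockout arrays. Its scaled log2 signal was -7.30, -4.64 and -6.01 on the hetero arrays and -7.88, -7.95 and -7.36 on the knockout arrays. It was not tested, and no fold is given for it.

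A ribosome consists of a small subunit, which holds the mRNA and decodes it, and a large subunit, which joins the amino acids and lets the growing chain out through an exit tunnel. Each subunit is a body of ribosomal RNA dressed with proteins that are needed in nearly equal amounts, and the mRNAs of these proteins are among the most abundant in a growing cell. Many of them begin with a terminal oligopyrimidine (TOP) tract, a C followed by a run of C and T, through which mTORC1 signalling controls their translation. Synthesis of ribosomes is also a known target of MYC.

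Signals are given as scaled log2 signal, which is the log2 processed signal minus the 75th percentile of its array, and changes as the log2 fold change of knockout over hetero. Every tested gene is represented by its brightest probe. A gene is called higher or lower where limma's moderated test has a Benjamini-Hochberg adjusted p under 0.05 over all 15838 genes tested. Of the 81 ribosomal protein genes 80 were tested. Rpl3l, the copy of Rpl3 found in heart and skeletal muscle, did not reach that background limit on any of the 6 arrays and was left out.

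Ribosomal protein mRNAs were lower in knockout spheres as a near-uniform block on this scale. Of the 80 tested genes 73 were called lower, 0 higher (0 by limma at an unadjusted p under 0.05) and 7 neither way, and 78 had a change below 0. Among all genes tested 32.5% were called lower and 27.9% higher, with a median of -0.03. The median change of the ribosomal protein genes was -0.25, or -15.8% (1.19-fold lower), with quartiles of -0.32 and -0.19. Single changes ran from -0.44 in Rps15 to 0.02 in Rps27l with a median SE of 0.03. The hetero and knockout arrays did not overlap for 74 of the 80, against 68.9% of all genes.

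That direction held only for some ways of scaling the arrays. It was the same with each array's median, with normexp background correction and with cyclic loess, nearly vanished with quantile normalization or without any scaling, and turned the other way when arrays were set to their spike-in spots. The median over the ribosomal protein genes of the scaled log2 signal was 8.04, 8.04 and 8.07 on the hetero arrays and 7.83, 7.83 and 7.82 on the knockout arrays. All 3 knockout arrays lay below all 3 hetero arrays on this scale, and the distance was many times the spread within a genotype. Before scaling, the same medians were 16.73, 16.70 and 16.77 against 16.69, 16.75 and 16.72, and the groups overlapped.

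**Figure D1:**
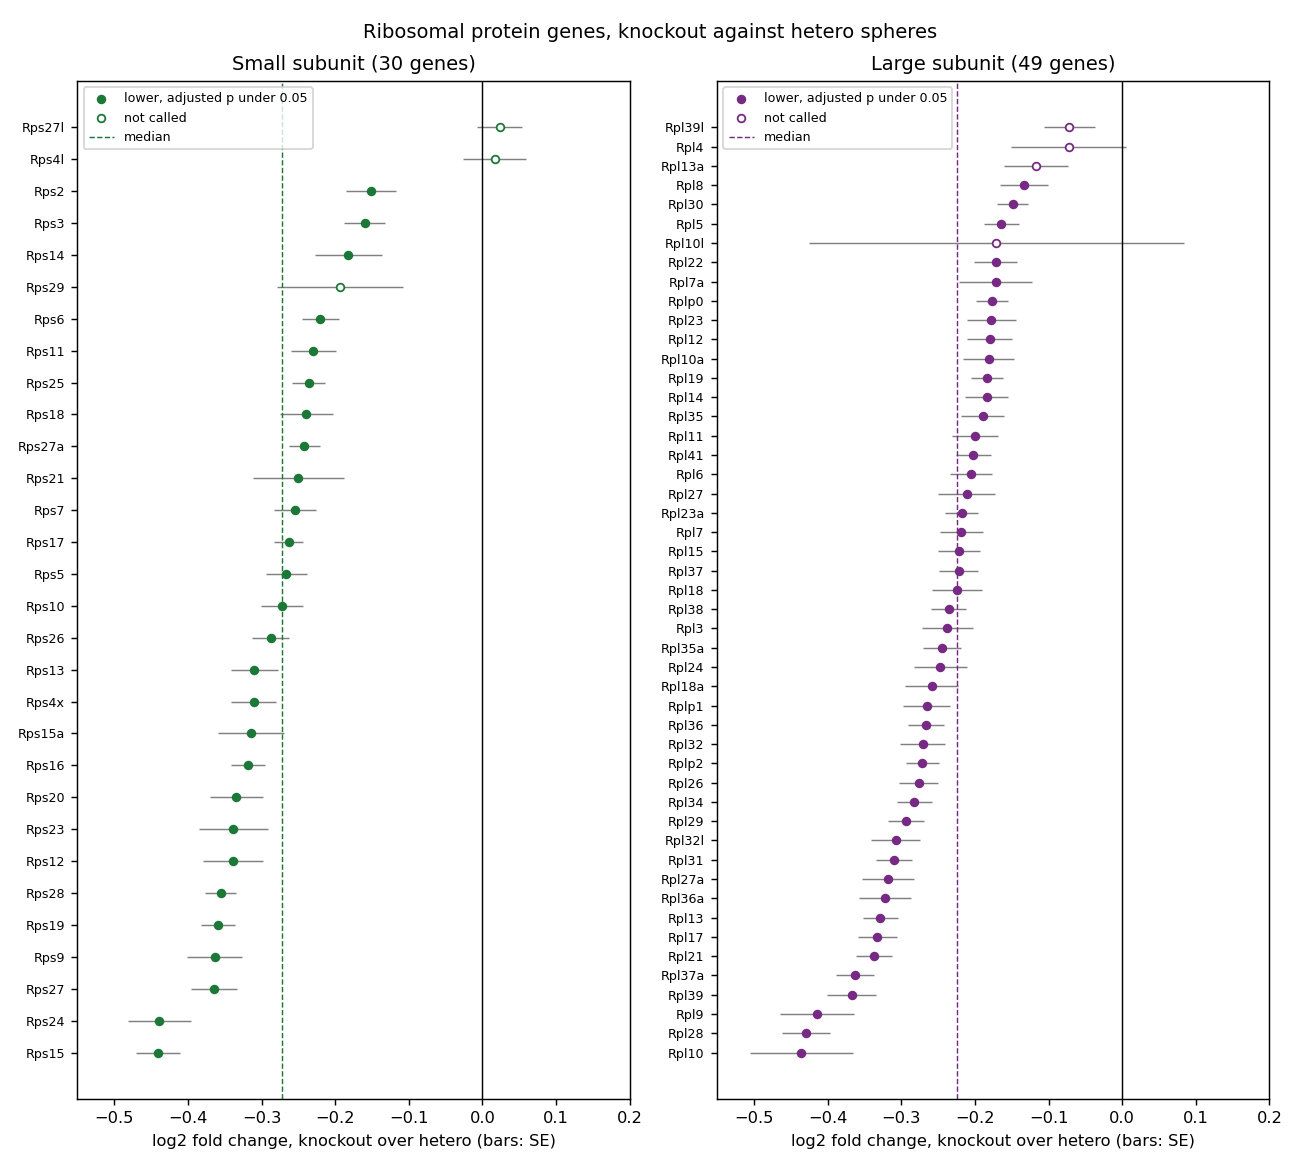
Change of each tested ribosomal protein gene, as log2 fold change of knockout over hetero on the 75th percentile scale (horizontal axis; bars, SE), for 30 of the 31 small and all 49 large subunit genes (vertical axis), with filled points called lower, open points not called, and a dashed line at the median of all the subunit's tested genes (-0.27 and -0.22). Nearly all genes lie left of 0 on this scale, and all but 4 lie right of 0 when arrays are set to the spike-in spots.

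Both subunits took part. In the small subunit 28 of 31 genes were called lower, with a median of -0.27, and in the large subunit 45 of 49, with a median of -0.22. Over the small subunit genes the median scaled log2 signal was 8.15, 8.10 and 8.14 on hetero arrays and 7.84, 7.86 and 7.82 on knockout arrays. Over the large subunit genes it was 8.03, 8.02 and 8.06 on hetero arrays and 7.82 on each knockout array. The groups did not overlap for either subunit.

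The small subunit's median change differed from the large subunit's by -0.05. This difference was not tested, since genes are not replicates of a genotype. This gap between the subunits had the same sign under every alternative run, from -0.08 with quantile normalization to -0.03 with the mean of a gene's probes, and it is not altered by any scaling that subtracts 1 number per array. Without knockout replicate 2 it was -0.08 and without knockout replicate 3 it was -0.03. On single arrays the small subunit's median stood above the large subunit's by 0.12, 0.07 and 0.08 in hetero spheres and by 0.02, 0.04 and 0.003 in knockout spheres. Those values depend on which probes were printed, and only their narrowing between genotypes can be read. With normexp background correction they were 0.03, 0.03 and -0.01 against 0.02, -0.02 and -0.05, and the genotypes overlapped.

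How far the block moved depended on the reference that was held constant. On the unscaled log2 scale the 75th percentile of all probes rose from a mean of 8.68 in hetero to 8.90 in knockout, a difference of 0.22. In Agilent's protocol spike-in spots read control RNA added to a sample before labelling, a step that the labels do not describe. The median of 238 such spots was 11.02, 11.03 and 11.05 on hetero arrays and 10.78, 10.88 and 10.84 on knockout arrays, a difference of -0.20. The ribosomal protein genes lay between these, at 16.73 in hetero and 16.72 in knockout, a difference of -0.01. Their position is thus lower against the 75th percentile of all probes, level in raw signal and higher against the spike-in spots.

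**Figure D2:**
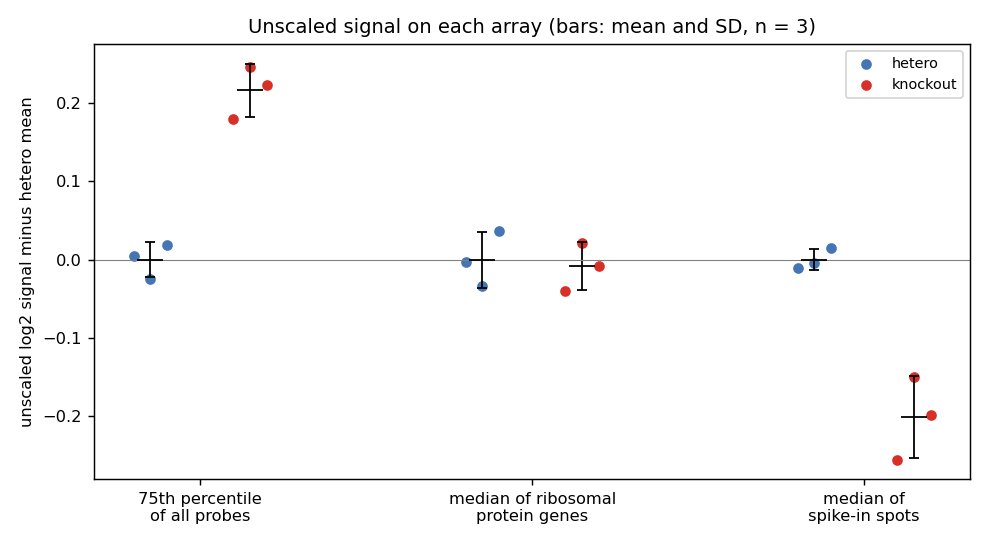
Unscaled log2 signal on each array minus the hetero mean (vertical axis) for the 75th percentile of all probes, the median of the ribosomal protein genes and the median of 238 spike-in spots (points, arrays; bars, mean and SD, n = 3). Against the hetero mean the knockout arrays rose by 0.22 for the percentile, moved by -0.01 for the ribosomal protein genes and by -0.20 for the spike-in spots.

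Set to the spike-in spots, 57 of the 80 ribosomal protein genes were called higher in knockout spheres and 0 lower (0 by limma at an unadjusted p under 0.05), with a median of 0.17. On that scale 72% of all genes were called higher and 7.83% lower, and the median of all genes was 0.38. The small subunit had 18 genes called higher with a median of 0.14, and the large subunit 39 with a median of 0.19. The 4 genes still below 0 were Rpl10, Rpl28, Rps15 and Rps24, and none of these was called there. Relative to the median of all genes, the ribosomal protein genes stood at -0.22 with spike-in scaling, with no scaling, with the 75th percentile and with each array's median.

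Without any scaling 3 genes were called higher and 18 lower, with a median of -0.03, where 52.2% of all genes were called higher and 13.7% lower. Quantile normalization, which forces 1 distribution on all arrays, left 6 called higher and 14 lower, with a median of -0.02, against 31.9% and 28.2% of all genes. Cyclic loess, which removes trends with brightness, left 1 higher and 43 lower, with a median of -0.09, against 34.7% and 25.6%. Scaling to each array's median gave 0 higher (0 by limma unadjusted) and 59 lower, with a median of -0.23, against 21.9% and 22.7%. Of the genes described singly below, Rplp0 (adjusted p = 0.0747), Rpl5 (0.117), Rps14 (0.0718), Rps3 (0.142), Rps2 (0.192), Rpl30 (0.144) and Rpl8 lost their call with that scaling. Normexp background correction gave 0 higher (0 by limma unadjusted) and 72 lower, with a median of -0.22, against 26.5% and 37% of all genes. The normexp, loess and quantile methods, which do not only subtract 1 number per array, reduced the distance to the median of all genes, to -0.17, -0.12 and -0.03.

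**Figure D3:**
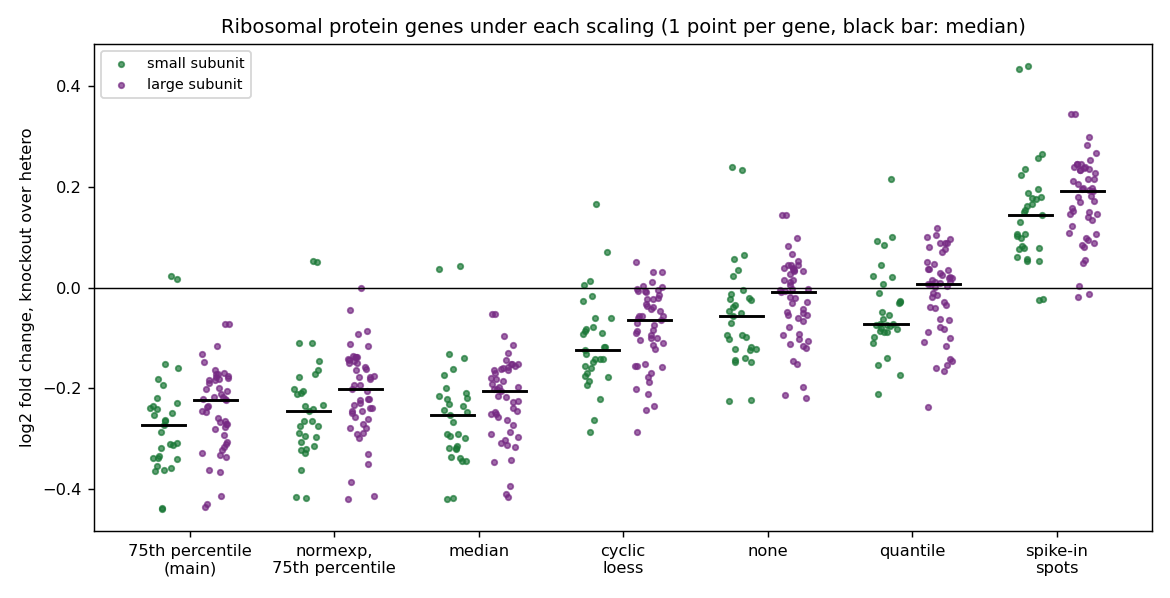
Log2 fold change of knockout over hetero (vertical axis) of each tested ribosomal protein gene under 7 ways of scaling the arrays (horizontal axis), with small and large subunit genes apart and black bars at their medians. The medians run from -0.27 and -0.22 on the 75th percentile scale to 0.14 and 0.19 with spike-in scaling, and the small subunit lies below the large subunit in every pair.

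A set of 11 of the 80 genes was called lower under all 6 of these scalings, the spike-in one excepted. They were Rps4x, Rps15, Rps16, Rps19, Rps24, Rps27 and Rps28 of the small subunit and Rpl17, Rpl21, Rpl28 and Rpl39 of the large subunit. This group was chosen after its values were seen and is given as a description. The share of all genes called lower under the same 6 scalings together was not counted. Whether 11 of 80 exceeds that share thus cannot be told. The genes called higher under quantile normalization were Rpl10a, Rpl11, Rpl12, Rpl14, Rps14 and Rps27l, with changes from 0.07 to 0.22. All of these but Rps27l were called lower on the 75th percentile scale.

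Start regions of these genes were read from RefSeq promoter windows on GRCm38.p6, which run from 250 bases before to 50 after the annotated start. The table held 72 such windows for 60 ribosomal protein genes. A TOP start was taken as a C at the annotated start followed by at least 4 more C or T letters on the gene's strand. It was present in 14 of the 72 windows (19.4%), against 2.51% of all 32851 windows of the same length. Annotated starts can lie a few bases off the true start, so the letters describe the annotation. The lines below give the 40 bases before and 20 bases after the start for 4 genes with a TOP start and for Rps27l, the copy of Rps27 that did not fall with it, to let the starts be compared. Capitals mark the C at the start and the run of C and T that follows it.
Rps27, GRCm38.p6 chr3:90213629-90213688, minus strand: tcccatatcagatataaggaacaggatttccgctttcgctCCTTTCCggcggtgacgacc
Rps6, GRCm38.p6 chr4:86857348-86857407, minus strand: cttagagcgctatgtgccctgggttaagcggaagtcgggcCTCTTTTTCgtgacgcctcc
Rpl28, GRCm38.p6 chr7:4792925-4792984, plus strand: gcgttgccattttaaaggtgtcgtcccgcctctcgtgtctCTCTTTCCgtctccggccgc
Rplp2, GRCm38.p6 chr7:141447611-141447670, plus strand: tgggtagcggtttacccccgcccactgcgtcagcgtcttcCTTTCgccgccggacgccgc
Rps27l, GRCm38.p6 chr9:66946046-66946105, plus strand: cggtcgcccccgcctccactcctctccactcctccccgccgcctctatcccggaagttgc

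Genes with and without a TOP start at the annotated base had the same median change. Of the genes with one, 14 of 14 tested were called lower, with a median of -0.25 and a range from -0.43 in Rpl28 to -0.18 in Rpl14. Of the genes with windows but no TOP start, 40 of 45 were called lower, also with a median of -0.25. A gene of this second group may still carry the tract at its true start. The split thus cannot compare TOP mRNAs with others. The letters CCGGAAG, a site type bound by ETS factors such as GABP, were found on either strand in 25 windows (34.7%), against 8.86% of all windows. Genes with that match had a median of -0.24 with 22 of 24 called lower, and genes without it a median of -0.31 with 32 of 35. The E-box CACGTG, which MYC and related factors bind, was in 8 windows (11.1%), against 7.15% of all. With spike-in scaling the whole block moved to the other side of 0, as above.

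All 5 genes listed for the mRNA entry and the decoding site were called lower, with a median of -0.34, as were 7 of 8 genes of the exit tunnel and its rim, with a median of -0.25. Of 7 genes with reported roles in the choice of mRNAs or in development 6 were lower, with a median of -0.24. These shares are near that of the whole block, 73 of 80, where 32.5% of all genes were called lower. Like that of the whole block, these medians are negative on the 75th percentile scale and positive on the spike-in scale.

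The stalk of the large subunit recruits elongation factors. Its base, Rplp0, had scaled log2 signals of 8.96, 8.98 and 8.98 in hetero and 8.79, 8.82 and 8.78 in knockout spheres, a change of -0.18 ± 0.02 (SE, n = 3 per genotype, adjusted p = 0.0011). Rplp1 read 8.74, 8.69 and 8.70 against 8.50, 8.42 and 8.42, and Rplp2 read 8.80, 8.83 and 8.82 against 8.55, 8.53 and 8.56. Their changes were -0.27 ± 0.03 and -0.27 ± 0.02, with adjusted p of 0.00106 and 0.00026. The genotypes did not overlap for any of the 3, and with spike-in scaling all 3 were called higher instead, by 0.24, 0.15 and 0.15.

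Rpl5 and Rpl11 travel to the ribosome together with the smallest ribosomal RNA, and when ribosome assembly fails they bind MDM2 and so stabilise p53. Rpl5 read 6.25, 6.24 and 6.21 in hetero and 6.08, 6.09 and 6.05 in knockout spheres, a change of -0.16 ± 0.02 (adjusted p = 0.00229). Rpl11 read 8.67, 8.63 and 8.67 against 8.48, 8.40 and 8.48, a change of -0.20 ± 0.03 (adjusted p = 0.00295). Rpl5 lay on the mild side of the block's quartiles and Rpl11 between them. Both changed sign without scaling, to 0.05 and 0.02, and were called higher with spike-in scaling, by 0.25 and 0.22.

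Rps6 is the substrate of the S6 kinases downstream of mTORC1. Its signals were 7.92, 7.93 and 7.90 in hetero and 7.72, 7.66 and 7.70 in knockout spheres, a change of -0.22 ± 0.03 (adjusted p = 0.000863) that was 0.01 with quantile normalization and 0.20 with spike-in scaling. Rps27a is made as a fusion with ubiquitin, from which it is cut. It read 8.76, 8.77 and 8.79 against 8.54, 8.54 and 8.52, a change of -0.24 ± 0.02 (adjusted p = 0.000277). The call for Rps27a was lost with its dimmest probe and with the mean of its probes (adjusted p = 0.629 and 0.284, in a range from 1.33e-05 to 0.629 over all settings). Another probe of Rps27a, at 6.97 in hetero spheres, changed by -0.08 with no call (adjusted p = 0.163 over probes). With spike-in scaling the change of Rps27a turned to 0.18.

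The largest fall of the small subunit was in Rps15, which sits near the decoding site. It read 7.87, 7.82 and 7.81 in hetero and 7.43, 7.37 and 7.37 in knockout spheres, a change of -0.44 ± 0.03 with a 95% interval from -0.52 to -0.36 (adjusted p = 0.000117). Rps24, mutated in some families with Diamond-Blackfan anaemia, read 8.71, 8.67 and 8.60 against 8.26, 8.16 and 8.25, a change of -0.44 ± 0.04 (adjusted p = 0.000445). Neither gene changed sign under any scaling, though with spike-in scaling both stood near 0 and were not called.

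Behind these came Rps27, Rps9 and Rps19. Rps9, at the mRNA entry and important for accurate decoding, read 8.44, 8.44 and 8.39 in hetero and 8.06, 8.12 and 7.9995 in knockout spheres, a change of -0.36 ± 0.04 (adjusted p = 0.000594). Rps19, the gene most often mutated in Diamond-Blackfan anaemia, read 7.09, 7.10 and 7.10 against 6.74, 6.71 and 6.77, a change of -0.36 ± 0.02 (adjusted p = 8.62e-05). Their spike-in values were 0.05 and 0.06 and were not called. Of the 18 ribosomal protein genes listed as mutated in that anaemia, 17 were called lower, with a median of -0.26, near the median of all 80.

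In the large subunit the greatest fall was in Rpl10, which completes the site where amino acids are joined and is added late in assembly. It read 9.33, 9.27 and 9.29 in hetero and 8.99, 8.87 and 8.73 in knockout spheres, a change of -0.44 ± 0.07 (adjusted p = 0.00348). The SD among its knockout arrays was 0.13, against 0.03 among its hetero arrays. Its other probes, at 8.91 and 8.67 in hetero spheres, changed by -0.27 and -0.26 (adjusted p = 0.00712 and 0.017 over probes), near the block's median. The rank of Rpl10 thus rests on its brightest probe. Rpl28 was close behind with tighter arrays, at 7.38, 7.30 and 7.40 against 6.93, 6.92 and 6.93, a change of -0.43 ± 0.03 (adjusted p = 0.000179). Both stayed below 0 with spike-in scaling, at -0.02 and -0.01, and were not called there.

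Rpl9 read 8.78, 8.80 and 8.83 in hetero and 8.29, 8.46 and 8.42 in knockout spheres, a change of -0.41 ± 0.05 (adjusted p = 0.00113). Rpl39, a small protein of the exit tunnel wall, read 7.88, 7.82 and 7.78 against 7.46, 7.48 and 7.45, a change of -0.37 ± 0.03 (adjusted p = 0.000339). Rpl37a read 9.26, 9.30 and 9.26 against 8.94, 8.90 and 8.89, a change of -0.36 ± 0.03 (adjusted p = 0.000128). In all 3 the groups stood clear of each other, and the spike-in values were 0.002, 0.05 and 0.05, with no call.

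At the mild end of the small subunit were Rps2, Rps3 and Rps14, all of them close to the path of the mRNA. Rps2 read 7.83, 7.76 and 7.72 in hetero and 7.63, 7.61 and 7.61 in knockout spheres, a change of -0.15 ± 0.03 (adjusted p = 0.0116). Rps3, which helps to open folded mRNA at the entry, read 6.86, 6.79 and 6.80 against 6.64, 6.66 and 6.67, a change of -0.16 ± 0.03 (adjusted p = 0.00472). A dimmer probe of Rps3, at 2.88 in hetero spheres, changed by -0.35 (adjusted p = 0.000724 over probes). Rps14 read 9.29, 9.19 and 9.27 against 9.13, 8.99 and 9.08, a change of -0.18 ± 0.05 (adjusted p = 0.0183). The call for Rps14 was lost without hetero replicate 1 (adjusted p = 0.0586) and without hetero replicate 3 (0.0566), and its adjusted p ran from 0.00305 to 0.812 over all settings. All 3 were called higher with spike-in scaling, by 0.27, 0.26 and 0.23, and had positive values without scaling.

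In the large subunit the mildest called changes were in Rpl8 and Rpl30. Rpl8, close to the centre where peptide bonds form, read 8.05, 8.06 and 8.13 in hetero and 7.95, 7.98 and 7.92 in knockout spheres, a change of -0.13 ± 0.03 (adjusted p = 0.0175). Its call was lost without knockout replicate 1 (adjusted p = 0.0527), without knockout replicate 3 (0.0575), with each array's median (0.129) and with normexp background correction (0.102), and its adjusted p ran from 0.000663 to 0.468 over all settings. The other probe of Rpl8, at 7.33 in hetero spheres, changed by -0.25 (adjusted p = 0.00272 over probes), near the block's median. Rpl30 read 7.50, 7.52 and 7.52 against 7.35, 7.36 and 7.39, a change of -0.15 ± 0.02 (adjusted p = 0.00226). Both were called higher with spike-in scaling, by 0.28 and 0.27.

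Among the 7 genes that were not called, Rpl4, Rpl13a and Rps29 code for ordinary ribosomal proteins. Rpl4, which lines the exit tunnel, read 6.17, 6.39 and 6.37 in hetero and 6.22, 6.34 and 6.17 in knockout spheres, and the groups overlapped. Its change was -0.07 ± 0.08 with a 95% interval from -0.27 to 0.12, which includes the block's median. Rpl13a, known also for silencing mRNAs after interferon-gamma, read 7.47, 7.33 and 7.40 against 7.25, 7.30 and 7.30, a change of -0.12 ± 0.04 (adjusted p = 0.0659). Its dimmer probes changed by -0.11 (adjusted p = 0.0372 over probes, called lower) and by -0.09 (0.0995, not called). Rps29, named after its values were seen, had 1 low hetero array, reading 8.42, 8.72 and 8.69 against 8.45, 8.39 and 8.42, a change of -0.19 ± 0.09 (adjusted p = 0.104). Its other 2 probes, nearly as bright, were both called lower, by -0.30 (adjusted p = 0.00147 over probes) and -0.25 (0.00165). The remaining 4 genes not called were copies of other ribosomal protein genes.

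In 3 pairs a copy stood apart from the gene it resembles. Of 5 copies with a narrow tissue range or induced expression 4 were tested and 0 were called (0 by limma at an unadjusted p under 0.05), with a median of -0.03. All 5 of their ubiquitous counterparts were called lower, with a median of -0.36. Rps27 read 8.70, 8.67 and 8.77 in hetero and 8.35, 8.34 and 8.35 in knockout spheres, a change of -0.36 ± 0.03 (adjusted p = 0.000294). Rps27l, its close copy and a known target of p53, read 7.11, 7.07 and 7.14 against 7.13, 7.10 and 7.16, a change of 0.02 ± 0.03 with a 95% interval from -0.05 to 0.10. Rpl32l, not in that list of copies, was called lower by -0.31 beside -0.27 for Rpl32. The lower end of the interval of Rps27l lies above the change of every other small subunit gene except Rps4l.

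Rps4x, the ubiquitous X-linked form, read 6.98, 6.95 and 6.97 in hetero and 6.71, 6.63 and 6.63 in knockout spheres, a change of -0.31 ± 0.03 (adjusted p = 0.000495). Its copy Rps4l, the transcribed pseudogene, read 2.45, 2.54 and 2.44 against 2.45, 2.55 and 2.48, a change of 0.02 ± 0.04. Rpl39l, the form of Rpl39 best known from the male germ line, read 2.64, 2.71 and 2.67 against 2.58, 2.57 and 2.65, a change of -0.07 ± 0.03 (adjusted p = 0.127). In both copies the genotypes overlapped.

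Rpl10l, the retrocopy of Rpl10 used in the testis, was near background, well above it on 2 of 3 hetero and 3 of 3 knockout arrays. It read -5.34, -4.57 and -4.79 in hetero and -4.77, -5.41 and -5.03 in knockout spheres. Its 95% interval from -0.81 to 0.47 allows a change like that of Rpl10. Rpl10l was called lower under 1 of the 6 scalings other than the spike-in one, and its adjusted p ran from 0.0221 to 0.996 over its settings. Rpl3 was called lower by -0.24 ± 0.03 (adjusted p = 0.00226), at 7.68, 7.69 and 7.61 against 7.46, 7.38 and 7.43. Its copy Rpl3l was below background on all 6 arrays, so the pair could not be compared.

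Within each array the distance between a copy and its counterpart is free of any constant scaling. From hetero to knockout the distance of Rps27l over Rps27 grew by 0.39, with SD of 0.02 among hetero and 0.03 among knockout arrays. That of Rps4l over Rps4x grew by 0.33 and that of Rpl39l over Rpl39 by 0.30. In each pair all knockout arrays lay beyond all hetero arrays, and the exact permutation test gave p = 0.1, two-sided, the smallest that 3 against 3 allows. Over the 21 settings run, the main one included, the growth was 0.30 to 0.41 for Rps27l, 0.19 to 0.38 for Rps4l and 0.09 to 0.33 for Rpl39l, and it was lowest with quantile normalization in each pair.

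**Figure D4:**
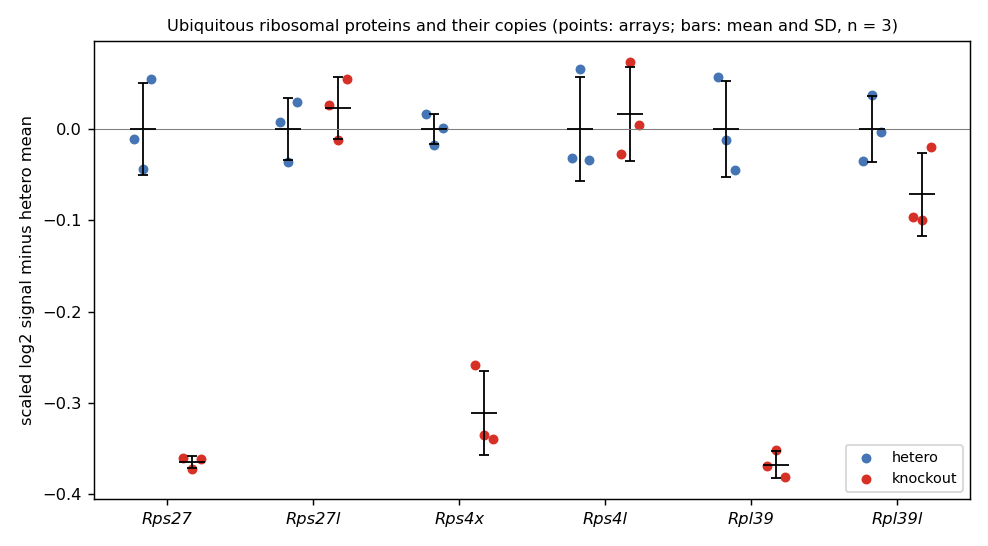
Scaled log2 signal minus the hetero mean (vertical axis) of 3 ubiquitous ribosomal protein genes and their copies on hetero and knockout arrays (points, arrays; bars, mean and SD, n = 3). On this scale Rps27, Rps4x and Rpl39 average -0.31 to -0.37 in knockout arrays and Rps27l, Rps4l and Rpl39l -0.07 to 0.02; with spike-in scaling all 6 lie above 0.

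An alternative added after seeing the data set every array to the median of its own ribosomal protein genes, so that a change shows a departure from the block. On that scale 5 of the 80 genes were called higher and 20 lower, where 54.6% of all genes were higher and 13.8% lower. The higher ones were Rps27l at 0.25 ± 0.03 (adjusted p = 0.000802), Rps4l at 0.24 ± 0.05 (0.00586), Rpl39l at 0.15 ± 0.04 (0.0147), Rpl8 at 0.09 and Rpl30 at 0.08. Among the lower ones were Rps15 at -0.22 ± 0.03 (adjusted p = 0.00224), Rps24 at -0.21 ± 0.05 (0.00935), Rpl10 at -0.21 ± 0.07 (0.0374), Rpl28 at -0.21 ± 0.03 (0.00199) and Rpl9 at -0.19 ± 0.05 (0.0203). Centring on the block's own median places changes on both sides of 0 by construction. Of the lower ones 10 were among the 31 small and 10 among the 49 large subunit genes.

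Single probes gave the same picture with a few departures. Of the 167 probes 164 passed the filter, and 143 of these were called lower and 1 higher, against 27.6% and 19.4% of all 35427 probes. Their median change was -0.26. Of 49 genes with several probes 36 had all of them called lower, and the changes of a gene's probes differed by a median of 0.07.

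The widest range belonged to Rpl22, chosen after its values were seen, with -0.17 at its brightest probe and -0.92 at a dimmer one. Rps24 had probes for 3 transcript records, which changed by -0.44, -0.28 and -0.15, all called lower. For Rpl17, with 7 probes, 5 were called lower, and its dimmest probe changed by 0.04 ± 0.03 with no call. Ribosomal protein genes have many processed pseudogenes and near-identical copies, among them Rpl32 and Rpl32l here, so a probe may read more than 1 transcript, and single genes of such pairs are uncertain.

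These genes were also among the brightest on the arrays. Of the 100 brightest genes 36 were ribosomal protein genes, and 77 of the 80 fell in the brightest of 10 equal bins of genes. No spot was saturated: the highest signal of a ribosomal protein probe was 264615, under the saturation value of 779158. The 1507 other genes in that bin had a median change of -0.07, with 45.9% called lower, against -0.25 for the ribosomal protein genes in it. With quantile normalization those other genes had a median of 0.06. Brightness moved with the result to that extent, and its part in the shift was not tested.

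**Figure D5:**
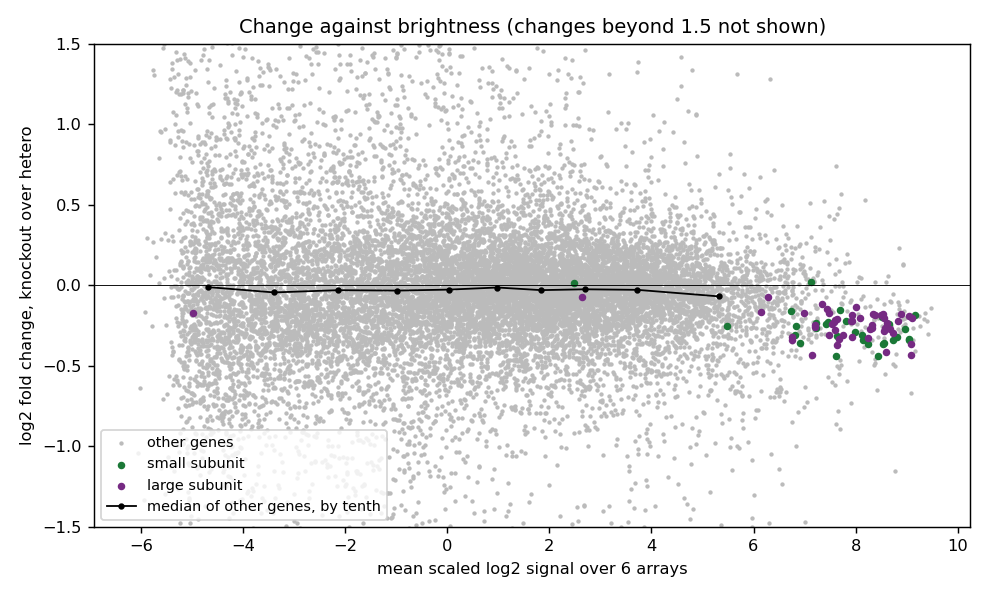
Log2 fold change of knockout over hetero (vertical axis, shown from -1.5 to 1.5) against mean scaled log2 signal over the 6 arrays (horizontal axis) for all genes tested, with small and large subunit genes in colour and the median of other genes in each of 10 brightness bins as a line. The line ends at -0.07 in the brightest bin, where the ribosomal protein genes have a median of -0.25 on this scale and the other genes one of 0.06 with quantile normalization.

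Most ribosomal proteins whose names fall outside the rule were called lower too. Of 7 such genes 5 were called lower and 0 higher, with a median of -0.18, which was 0.06 with quantile normalization and 0.24 with spike-in scaling. Fau, made as a fusion with a ubiquitin-like protein, read 9.32, 9.26 and 9.29 in hetero and 8.95 on each knockout array, a change of -0.34 ± 0.02 (adjusted p = 0.000133). Rpsa changed by -0.20, Rack1, a signalling scaffold on the small subunit, by -0.18 and Rpl22l1 by -0.10. The 2 not called were Rpl36al at -0.06 and Rpl7l1 at 0.17. Counts for this list and those that follow stand against 32.5% of all genes called lower and 27.9% higher.

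Other mRNAs of the TOP class and elongation factors moved the same way in part. Of 20 listed genes 12 were called lower and 2 higher, with a median of -0.16, which was close to 0 with quantile normalization and 0.25 with spike-in scaling. Eif4b, a helper of mRNA unwinding, fell by 0.48 ± 0.03 (adjusted p = 7.68e-05), from 4.14, 4.08 and 4.11 to 3.61, 3.67 and 3.61. Pabpc1, which binds the poly(A) tail, changed by -0.33, the initiation factor subunit Eif3f by -0.32 and the elongation factor subunit Eef1g by -0.24. The 2 called higher were Eif4a2 at 0.09 and Eif2s3x at 0.18, named after their values were seen.

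Few factors that build ribosomes were called lower. Of 48 listed biogenesis factors 21 were called higher and 4 lower, with a median of 0.09, and the median was 0.12 with quantile normalization and 0.51 with spike-in scaling. Nhp2, of the particles that modify ribosomal RNA, read 4.64, 4.65 and 4.65 in hetero and 4.978, 4.990 and 4.999 in knockout spheres, a change of 0.34 ± 0.02 (adjusted p = 5.82e-05). Pno1, needed for the small subunit, changed by 0.31, Nmd3, which takes the large subunit out of the nucleus, by 0.28 and the kinase Riok2 by 0.20. For RNA polymerase I and its factors, which make ribosomal RNA, 3 of 19 tested were called higher and 2 lower, with a median of 0.01 and 0.43 with spike-in scaling. The leading ones were Taf1d at 0.19, Polr1e at 0.14, Cd3eap at 0.13 and Taf1c at -0.13.

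Of 27 tested genes of the MYC network and of mTORC1 control 8 were called higher and 8 lower, shares near those of all genes, with a median of -0.07 and a spike-in median of 0.34. Myc itself read 0.96, 0.99 and 0.99 in hetero and 1.33, 1.37 and 1.37 in knockout spheres, a change of 0.38 ± 0.02 (adjusted p = 7.72e-05). Mycn was not well above background on the hetero arrays, with a mean of -5.07, and was on all 3 knockout arrays, with a mean of -3.26. These means differ by 1.81 (95% interval from 1.58 to 2.05), or 3.51-fold, an approximate value since the hetero signal was not well above background. Raising each hetero array to at least its dimmest probe well above background left this value unchanged. Mycn passed the filter on dim probes through the knockout arrays alone, so its place among the 8 higher genes is no support for a change of the list. Ddit4, an inhibitor of mTORC1, changed by -0.48 ± 0.02 (adjusted p = 1.88e-05) and Mnt, a MYC antagonist, by -0.23. With spike-in scaling 24 of the 27 genes were called higher and 0 lower, where 72% of all genes were called higher. Neither of these 2 falls was thus called on that scale.

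Mitochondrial ribosomal proteins, which make a separate ribosome, were called in both directions on the 75th percentile scale. Of 77 tested 19 were higher and 16 lower, with a median of 0.01, against the 27.9% and 32.5% of all genes. With spike-in scaling 76 of the 77 were called higher, with a median of 0.43, where 72% of all genes were. On the 75th percentile scale 0 of 80 cytosolic ribosomal protein genes were higher and 73 lower, as given above.

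Marker genes of the cell types that a tumor sphere could hold also differed between the genotypes. Luminal epithelial markers were called higher in 11 of 11 genes, of which Elf3 passed the filter through the knockout arrays alone, with a median of 3.44, and their summed log2 signal went from 3.62 to 3.68 in hetero to 7.03 to 7.06 in knockout spheres. Basal epithelial markers were higher in 6 of 7 tested, with a median of 2.01 and sums of 4.41 to 4.42 against 6.56 to 6.57. Macrophage markers were lower in 10 of 10, with a median of -1.86 and sums of 4.91 to 4.92 against 3.30. Fibroblast markers were lower in 7 of 9 and higher in 1, with sums of 11.11 to 11.25 against 10.71 to 10.76. In these 4 lists each marker on the array was well above background on at least 1 array.

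Markers of dividing cells were higher in 6 of 9 with 0 lower, with a median of 0.14. Endothelial markers were lower in 4 and higher in 2 of 7, adipocyte markers lower in 3 of 5 with Cidec below background, and B cell markers lower in 2 and higher in 1 of 4. The higher one, Ms4a1, passed the filter through the knockout arrays alone. Of T and NK cell markers 1 of 3 was lower, with Cd3d and Cd8a below background, and the red cell genes Hbb-bs, Hbb-bt and Alas2 were below background. With spike-in scaling the luminal, basal, macrophage and fibroblast medians had the same sign, at 3.86, 2.43, -1.44 and -0.13, against -0.55 for fibroblasts on the 75th percentile scale. The endothelial, adipocyte, T and NK cell and B cell medians turned from -0.16, -0.26, -0.15 and -0.27 to 0.26, 0.15, 0.27 and 0.15, so their counts above hold for the 75th percentile scale only. These markers differed between the genotypes in both directions, and their part in the shift of the ribosomal protein genes was not tested.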

How the data were processed

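Per the file headers and the submitters' notes, spots were read with Agilent Feature Extraction 10.7.3.1. The deposited intensities used are processed signals on a linear scale, already corrected for background and not scaled between arrays, per the file headers. The series' deposited table of intensities equals that signal divided by a constant per array (402 to 484), within 1% for 100% of its single-spot probes (46598 probes in all), with column medians of 0.159 to 0.169. How its probes were selected was not stated. Each constant was close to that array's 75th percentile of processed signal (404 to 487 over the arrays), so the deposited table is nearly on the main scale.

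Each array has 62976 spots; 3671 controls and 102 to 129 outlier spots were left out. Probes were named by RefSeq accession with a GRCm38.p6 gene table; the array was designed on mm9, so no probe coordinates are given. Spots of a probe were averaged as log2. Probes well above background on at least 3 of 6 arrays were kept (35427), and the brightest probe of a gene was used. Genotypes were compared with lmFit and eBayes (limma 3.58.1, R 4.3.3) without covariates, threshold 0.05; all genes entered 1 fit. Tables were made with Python 3.11.15 and pandas 2.3.3. On simulated arrays with 15838 genes the fit recovered 34% of 50 genes changed by 0.25 and 64% changed by 0.5, and 10 of its 148 calls were unchanged genes. Only 200 genes were changed in that simulation, while 60.4% of genes were called in the data, so its recovery does not carry over to them.

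Named genes were those of the stalk, MDM2-binding, S6 kinase, ubiquitin fusion and copy groups with their counterparts, the 5 highest and 5 lowest changes per subunit, genes with probes called both ways, genes below background, 7 ribosomal proteins outside the naming rule, and up to 4 genes of smallest p per pathway list. Single values of a few of these genes are left out of the text. Members and lists were chosen with earlier results of these data known. Alternatives covered scaling, background, filter, probe choice, variance model, replicate block and each array left out. Normexp used median foreground signals, since the files hold no mean signal column.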

Additional observations from a re-analysis of the deposited data

How the results depend on the processing

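Counts below are of genes called higher and lower in knockout spheres, and medians are log2 fold changes. Without scaling, 3 ribosomal protein genes were higher and 18 lower with a median of -0.032, in the small subunit 2 and 10 with -0.057, in the large subunit 1 and 8 with -0.0085, and of the probes 7 and 21. With quantile normalization, 6 ribosomal protein genes were higher and 14 lower with a median of -0.023, in the small subunit 2 and 8 with -0.072, in the large subunit 4 and 6 with 0.007, and of the probes 3 and 31. With cyclic loess, 1 ribosomal protein gene was higher and 43 lower with a median of -0.088, in the small subunit 1 and 21 with -0.12, in the large subunit 0 and 22 with -0.065, and of the probes 2 and 75. With spike-in scaling, 57 ribosomal protein genes were higher and 0 lower with a median of 0.17, in the small subunit 18 and 0 with 0.14, in the large subunit 39 and 0 with 0.19, and of the probes 104 and 1. With scaling to the members' own median, added after seeing the data, 5 ribosomal protein genes were higher and 20 lower with a median of -0.024, in the small subunit 2 and 10 with -0.048, in the large subunit 3 and 10 with -0.0001, and of the probes 8 and 29. Median scaling moved the medians to -0.23 in all and -0.20 in the large subunit and left 88 probes lower. Normexp moved the medians to -0.22 in all, -0.25 in the small and -0.20 in the large subunit. The mean of a gene's probes moved the large subunit median to -0.24, and the dimmest probes made 1 gene higher, in the small subunit. The filters, the deposited table and the intensity trend kept each of these counts within 1.5 times and each median within the spread between arrays. For the deposited table this was built in, since its constants are close to each array's 75th percentile.

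Without scaling, the changes of Rplp0 (0.040), Rpl5 (0.052), Rpl11 (0.016), Rpl39l (0.14), Rps14 (0.034), Rps3 (0.056), Rps2 (0.065), Rpl30 (0.067), Rpl8 (0.083) turned positive. With quantile normalization, the changes of Rplp0 (0.051), Rplp1 (0.011), Rpl11 (0.071), Rps6 (0.007), Rps27a (0.024), Rps14 (0.10), Rps3 (0.021), Rps2 (0.092), Rpl30 (0.048), Rpl8 (0.10) turned positive. With cyclic loess, the changes of Rplp0 (0.011), Rps14 (0.013), Rps2 (0.0048), Rpl30 (0.0011), Rpl8 (0.031) turned positive. With spike-in scaling, the changes of Rplp0 (0.24), Rplp1 (0.15), Rplp2 (0.15), Rpl5 (0.25), Rpl11 (0.22), Rps6 (0.20), Rps27a (0.18), Rpl39l (0.35), Rpl3 (0.18), Rpl39 (0.050), Rps27 (0.052), Rps4x (0.11), Rps9 (0.053), Rps19 (0.058), Rps14 (0.23), Rps3 (0.26), Rps2 (0.27), Rpl9 (0.0021), Rpl37a (0.054), Rpl30 (0.27), Rpl8 (0.28), Rpl13a (0.30), Rpl4 (0.34) turned positive. With scaling to the members' own median, added after seeing the data, the changes of Rplp0 (0.048), Rpl5 (0.061), Rpl11 (0.024), Rps6 (0.0044), Rpl39l (0.15), Rps14 (0.042), Rps3 (0.065), Rps2 (0.073), Rpl30 (0.076), Rpl8 (0.091) turned positive. These lists hold genes called on the 75th percentile scale or under the alternative. Of genes called under neither, Rpl13a and Rpl4 turned positive without scaling (0.099 and 0.14), with quantile normalization (0.081 and 0.090), with cyclic loess (0.031 and 0.051) and with the members' own median (0.11 and 0.15), and Rpl10l without scaling (0.045), with the spike-in spots (0.25) and with the members' own median (0.054). With the sign kept, 7 named genes lost their call with median scaling, 7 with quantile normalization, 5 with cyclic loess, 5 without scaling, 5 with the members' own median and 4 with spike-in scaling. With the dimmest probe Rpl11 (adjusted p = 0.119), Rpl30 (0.0595) and Rps27a lost theirs. The cause of these reversals was not tested.

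Leaving out each array in turn gave 70 to 73 genes lower and 0 to 0 higher with a median of -0.26 to -0.25, in the small subunit 27 to 28 lower and 0 to 0 higher with -0.30 to -0.26, in the large subunit 43 to 45 lower and 0 to 0 higher with -0.25 to -0.22, and of the probes 129 to 136 lower and 1 to 1 higher. Same-numbered replicates did not deviate together (correlations -0.12, -0.02 and -0.01) and were not taken as pairs. With the replicate block 72 ribosomal protein genes were lower and 0 higher with a median of -0.25, and of the named genes only Rpl8 lost its call (adjusted p = 0.068, in a range from 0.000663 to 0.468 over its settings). Signal over background limits Rpl10l, Rpl3l and Frs3, which lay near or below it.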
